A study of Mus musculus with 140 samples.

Results

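Livers of mice lacking the clock activator BMAL1 were compared with livers of WT mice at CT8 and CT32, the same circadian time on 2 successive days in constant darkness. Of the 140 liver libraries of the series, 16 were used for this comparison, 4 for each genotype at each of the time points, selected by their genotype and time labels. A further 15 libraries, collected 12 hours from that phase at CT20 and CT44 (8 WT and 7 Bmal1-/-), served to ask which differences belonged to the phase. All mice were male, aged 3 months, on ad libitum food. WT mice were C57BL/6, and Bmal1-/- mice carried the whole-body null allele B6.129-Arntl tm1Bra/J, so no cell type of the liver kept an intact gene and effects of other organs on the liver cannot be told apart from effects within it. Mice were released from light-dark cycles into constant darkness; for Bmal1-/-, 1 label of housing names a light-dark regimen during the experiment and another names constant darkness.

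The circadian clock of mammalian cells is a feedback loop. BMAL1, encoded by Arntl, pairs with CLOCK or its relative NPAS2 and binds E-boxes, whose core letters are CACGTG. The pair activates genes for its own repressors, the PER and CRY proteins, for the REV-ERB repressors, which compete with ROR activators at ROR elements, and for the PAR bZIP factors DBP, TEF and HLF, which bind D-boxes in genes of liver metabolism. In mouse liver many E-box genes are near their daily high around CT8, and many genes under REV-ERB are then near their low.

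Transcripts were measured by bulk MARS-seq, a 3′ tag method in which unique molecular identifiers are counted for each gene. The 16 libraries held 2253336 to 4231013 molecules. Of 10970 genes found in both tables, 8545 passed the filter on low counts and were tested. Levels are given in CPM, the share of a library's molecules scaled to a common total, and differences as log2 fold changes of Bmal1-/- over WT with their standard error (SE); a gene was called at an adjusted p below 0.05 from edgeR's quasi-likelihood test with Benjamini-Hochberg adjustment over all 8545 genes. Expression correlated with the own group at a median r of 0.957 for library C of Bmal1-/- at CT32 and of 0.970 to 0.980 for the other 15. Hepatocyte markers were high in every library. Their summed level was lower in Bmal1-/- without overlap, at 52891 to 71800 CPM against 73870 to 95244 CPM in WT. Of the 9 tested, 3 were lower and 2 higher, beside 25.0% and 24.3% of all genes. Kupffer cell and macrophage markers were lower in Bmal1-/-, at 185 to 375 CPM against 469 to 1166 CPM in WT. The 1 joined erythroid marker, Alas2, was lower, at 48.8 to 162 CPM against 181 to 277 CPM. The 2 tested cholangiocyte markers, Sox9 and Spp1, were higher, though the summed levels of their list overlapped. Of 7 exocrine pancreas markers only 2 were joined and 1 was tested, Cela1, an elastase, at 140 to 334 CPM in Bmal1-/- against 33.9 to 75.0 CPM in WT.

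Arntl, the targeted gene, was counted in every library. Its level was 3.44, 3.84, 2.45 and 2.09 CPM in WT at CT8 and 2.49, 0.872, 1.24 and 3.65 CPM at CT32. In Bmal1-/- it was 7.32, 8.06, 8.996 and 11.1 CPM at CT8 and 10.6, 10.95, 9.39 and 7.33 CPM at CT32, above every WT library. These values do not check the genotype label, since the tag is taken at the 3′ end of the RNA and the deletion lies elsewhere in the gene. Tags of the locus were higher in Bmal1-/- at CT8/CT32 (log2 1.88, SE 0.22) and lower at CT20/CT44 (-1.33), where WT held 12.6 to 23.9 CPM and Bmal1-/- 6.55 to 11.7 CPM, an interaction with phase of 3.22 (SE 0.26).

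Expression differed widely. In Bmal1-/- liver, 2136 genes were lower, which was 25.0% of those tested, and 2077 were higher, 24.3%. At least 2-fold, 572 genes were lower (6.69%) and 463 higher (5.42%). At CT20/CT44, 1840 genes were lower (21.5%) and 1744 higher (20.4%). Between CT8 and CT32 the genotype difference changed for 0 genes by edgeR and 0 by DESeq2, with 393 at an unadjusted p under 0.05.

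The counts of WT and of Bmal1-/- were deposited in separate tables, in which 411 of the joined genes carried symbols of different age, so the genotype and the gene models or run behind a table cannot be told apart. Some of the largest differences were at both phases alike. Rps20, a protein of the small ribosomal subunit, lay at 395 to 586 CPM in WT and at 0 to 1.07 CPM in Bmal1-/-, a log2 fold change of -9.72 at CT8/CT32 and of -9.48 at CT20/CT44. Pgm2 fell from 258 to 3.18 CPM while Pgm1, whose symbol is also an older name of Pgm2, was at 2.65 CPM in WT and at 254 CPM in Bmal1-/-. Of the 572 genes at least 2-fold lower at CT8/CT32, 379 (66.3%) were also at least 2-fold lower at CT20/CT44. Of the 463 higher genes, 278 (60.0%) were also at least 2-fold higher there. Among all 8545 genes, 581 were at least 2-fold lower and 381 at least 2-fold higher at CT20/CT44. Next, the 12 largest falls and 12 largest rises were taken that held without overlap and with each library left out. Of these, 11 falls and all 12 rises were also called the same way at CT20/CT44. Among all genes, 21.5% were lower and 20.4% higher there. Only 5 of the largest changes had a called interaction. These were the falls of Nr1d1, Rgs16 and Ube2d3, a ubiquitin-conjugating enzyme (57.8 to 1.56 CPM), and the rises of Grk5, a receptor kinase (1.72 to 41.4 CPM), and Coq8a, a factor of coenzyme Q synthesis (12.7 to 739.7 CPM). The interaction was no longer called for Ube2d3 without library C of Bmal1-/- at CT32 (adjusted p = 0.0504) or for Grk5 without library A of WT at CT20 (adjusted p = 0.0676). The other falls included Ctsl, a lysosomal protease (615 to 4.22 CPM), and Gpt2, an alanine aminotransferase (289 to 3.99 CPM), and the other rises Arpp19, a phosphatase inhibitor (0.744 to 322 CPM), and Cyp2c70, a bile acid hydroxylase (log2 4.66). A difference that is the same at both phases drops out of the phase interaction, the difference at CT8/CT32 minus that at CT20/CT44, and this was tested for every gene.

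**Figure D1:**
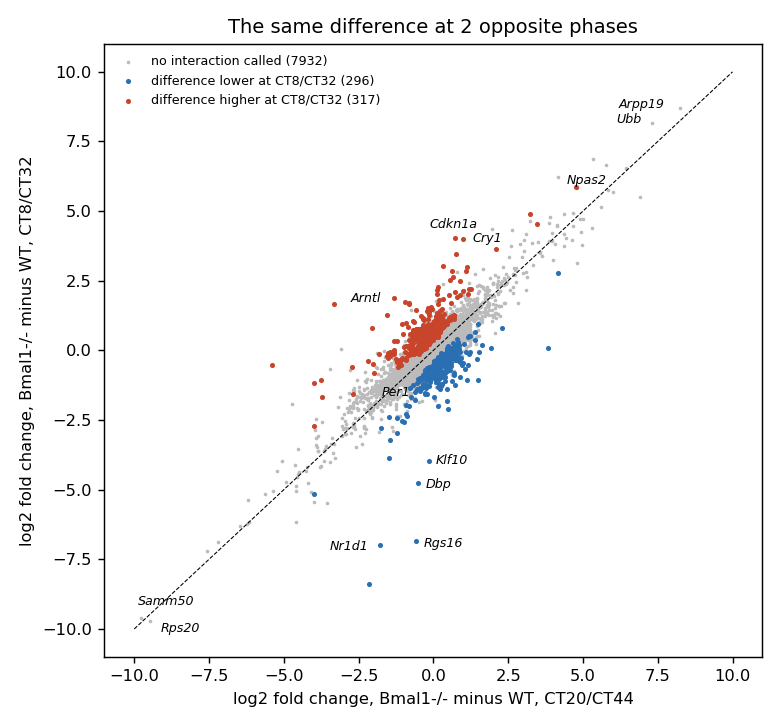
Log2 fold change of Bmal1-/- over WT at CT8/CT32 (vertical axis) against CT20/CT44 (horizontal axis), 1 point for each of the 8545 genes tested, with the line of equal difference dashed. The largest differences, such as Rps20, Samm50, Arpp19 and Ubb, lie near the line, whereas Nr1d1, Dbp, Rgs16 and Klf10 lie far below it, and Cry1, Cdkn1a and Arntl above it.

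The genotype difference depended on phase for a small share of genes. It was lower at CT8/CT32 for 296 genes (3.46%) and higher for 317 (3.71%). Of the 296, 204 were called lower in Bmal1-/- at CT8/CT32 (25.0% of all genes), and 257 were higher in WT at CT8/CT32 than at CT20/CT44. Of the 317, 220 were called higher in Bmal1-/- (24.3% of all genes) and 282 were lower in WT at CT8/CT32. Both comparisons are parts of the interaction and use its libraries. These counts therefore describe the chosen genes and are no separate support. With library totals in place of TMM scaling, which moved the median interaction of all genes from 0.01 to -0.10 on the log2 scale, the split was 534 lower and 197 higher. Within WT, 1385 genes differed between CT8/CT32 and CT20/CT44, 723 of them higher (8.46%) and 662 lower (7.75%). Within Bmal1-/-, 0 genes did by edgeR and 11 by DESeq2, against 815 at an unadjusted p under 0.05.

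The core elements of these loops were looked up in promoter windows of 250 bases before to 50 after the start site (RefSeq, GRCm38.p6), to show what the genes below carry there. A window was given for 37 of the 47 genes searched. Each stretch below is 30 bases, in the direction of transcription, with the element in capitals: the E-box CACGTG, its variant CACGTT, which reads as AACGTG on the other strand, the D-box TTATGTAA, and the core of the ROR element, which is TAGGTCA or, when read on the other strand, TGACCTA. The variant of the E-box is shown for Nr1d1 because its window held no CACGTG.
Per1, E-box, chr11:69098771-69098800, plus strand: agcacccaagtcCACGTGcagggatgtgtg
Tef, E-box, chr15:81802534-81802563, plus strand: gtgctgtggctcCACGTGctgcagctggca
Cry1, E-box, chr10:85185097-85185126, minus strand: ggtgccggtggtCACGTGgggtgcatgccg
Nr1d1, E-box variant, chr11:98775388-98775417, minus strand: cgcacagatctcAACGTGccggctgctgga
Per3, D-box, chr4:151044852-151044881, minus strand: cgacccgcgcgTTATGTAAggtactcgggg
Per3, D-box, chr4:151044805-151044834, minus strand: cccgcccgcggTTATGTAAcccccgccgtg
Nfil3, ROR element core, chr13:52981033-52981062, minus strand: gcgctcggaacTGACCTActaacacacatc
Arntl, ROR element core, chr7:113207530-113207559, plus strand: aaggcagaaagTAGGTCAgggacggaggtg
On both strands, CACGTG was in 7.15% of all 32851 windows, CACGTT in 4.68%, TTATGTAA in 0.938% and TAGGTCA in 2.61%. By gene, CACGTG was in 12.6% of the 6911 tested genes with a window. It was in 10.3% of the 232 genes with a lower interaction and in 16.7% of the 251 with a higher one. The window of Dbp held none of these elements.

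Nr1d1 and Dbp, which BMAL1 is known to activate, were high in WT at CT8/CT32. In Bmal1-/- they were in or below the WT range of CT20/CT44. Nr1d1, the gene of the repressor REV-ERBα (chr11:98767932-98775377), stood in WT at 325, 342, 229 and 168 CPM at CT8 and at 251, 278, 220 and 231 CPM at CT32. In Bmal1-/- it was at 1.76, 0.863, 0.666 and 1.23 CPM at CT8 and at 3.45, 3.21, 2.15 and 2.54 CPM at CT32. The groups were far apart, and the Bmal1-/- mean was 0.775% of that in WT. The log2 fold change was -6.97 (SE 0.23, adjusted p = 3e-15) and the interaction -5.20 (SE 0.50, adjusted p = 1.5e-08). The Bmal1-/- libraries lay in or below the range of 2.51 to 8.92 CPM that WT reached at CT20/CT44.

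Dbp, which encodes a D-box activator, showed the same pattern. Its level was 347, 399, 381 and 420 CPM in WT at CT8 and 315, 302, 387 and 358 CPM at CT32. In Bmal1-/- it was 14.3, 9.21, 12.3 and 14.5 CPM at CT8 and 15.0, 14.7, 12.3 and 14.9 CPM at CT32. The replicates of each genotype lay close together and the genotypes did not overlap, with a log2 fold change of -4.75 (SE 0.12). The level left was 3.69% of WT, and apart from the lowest library it lay within the WT range at CT20/CT44, 9.26 to 22.6 CPM. Mean Dbp in WT was lower still at CT0 and CT24, at 7.58 and 5.23 CPM. With loci extended by 1000 bases at the 5′ and 100 at the 3′ end, Nr1d1 overlaps Thra, and Dbp overlaps Car11 and Sphk2. So do Per3 with Camta1, Usp2 with Rnf26, Elovl3 with Pitx3 and Por with Tmem120a. Whether the counting used strand is not given in the sources used here.

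The Period genes did not move together. Per1, a repressor of the pair, was 25.2 to 50.6 CPM in WT and 6.14 to 18.4 CPM in 7 Bmal1-/- libraries, while library C of Bmal1-/- at CT32 held 58.5 CPM. With that library the log2 fold change was -1.04 (SE 0.35, adjusted p = 0.017), and without it -1.63 (SE 0.20). Per2, a repressor of the same family, had a log2 fold change in the other direction, 0.88 (SE 0.20), from 8.01 ± 2.45 (SD, n = 8) to 14.6 ± 4.41 CPM, and these ranges overlapped. In WT, Per2 was lower at CT8/CT32 than at CT20/CT44, where it reached 12.2 to 24.9 CPM. Per3, the third member of the family, fell to 38.9% of WT, from 5.16 to 12.6 CPM to 1.67 to 4.54 CPM, without overlap.

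Of the 20 listed E-box genes, 16 were tested, 12 were lower and 4 higher in Bmal1-/-, beside the 25.0% and 24.3% of all genes. Their median log2 fold change was -0.995, against -0.01 for all genes, and 6 of the lower and 2 of the higher genes had no overlap between genotypes (7.77% and 8.48% of all genes). At CT20/CT44, 8 of the 16 were lower and 3 higher, with a median of -0.51. The interaction was lower for 4 and higher for 4, beside 3.46% and 3.71% of all genes. Bhlhe40, a repressor that also binds E-boxes, fell by 0.95 on the log2 scale (SE 0.12) with an interaction of -1.34. Noct, a circadian phosphatase once taken for a deadenylase, fell from 34.1 ± 14.9 to 8.05 ± 9.84 CPM, and library C of Bmal1-/- at CT32 again stood high at 31.4 CPM; the log2 fold change of -2.10 became -2.88 without it. Gys2, the glycogen synthase of liver, fell to 36.8% of WT, from 218 to 447 CPM to 80.2 to 177 CPM. The remaining PAR bZIP genes changed less, as the log2 fold change of Tef was -0.29 (SE 0.09) and that of Hlf -0.62 (SE 0.11). Wee1, a kinase that holds cells before mitosis, fell by 1.20 and Usp2, a ubiquitin-specific protease, by 1.15. Tspan4, a tetraspanin, had a log2 fold change of -0.29, which was no longer called when any of 7 single libraries was left out. Cry2 rose by 0.50 (SE 0.11). Nr1d2, the second REV-ERB gene, was below the filter, with 5 to 23 molecules in each WT library and 0 to 2 in each Bmal1-/- library.

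**Figure D2:**
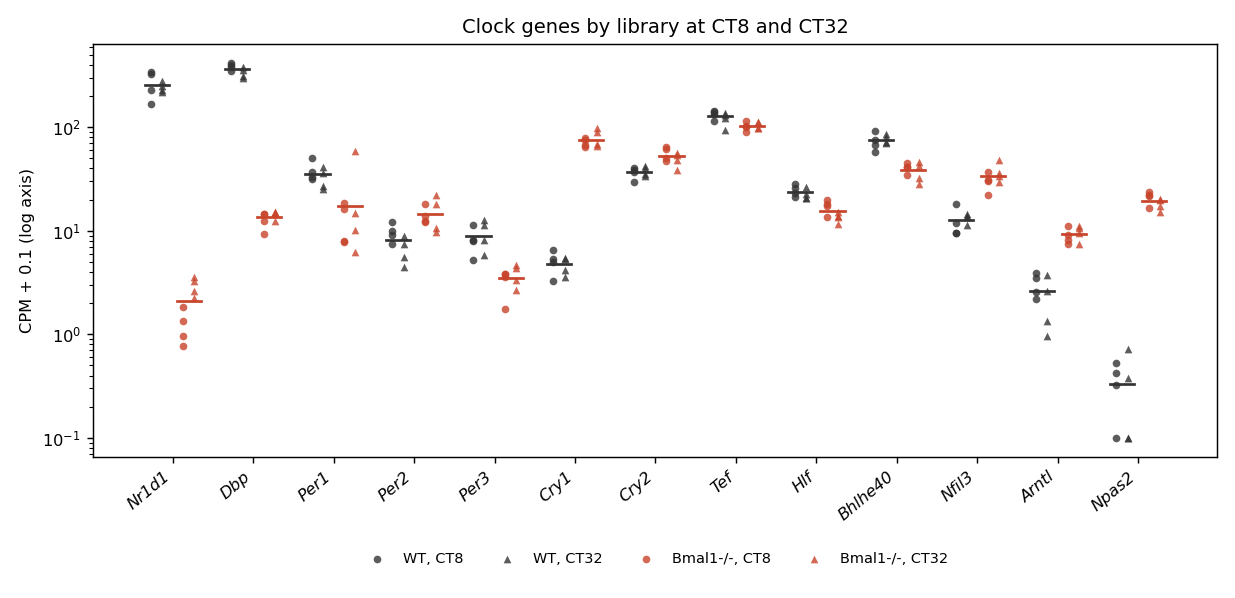
Level of 13 clock genes in each library at CT8 (circles) and CT32 (triangles), in CPM plus 0.1 on a log axis, with WT in black and Bmal1-/- in red and horizontal bars at the means of 8 libraries. Nr1d1 and Dbp fall in all Bmal1-/- libraries, Cry1, Nfil3, Arntl and Npas2 lie above WT, and the single high point of Per1 is library C of Bmal1-/- at CT32.

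Genes with ROR elements, which REV-ERB is known to repress, were mostly higher in Bmal1-/-. Cry1, a repressor with both E-boxes and ROR elements, stood at 6.45, 3.20, 4.90 and 5.22 CPM in WT at CT8 and at 4.05, 5.23, 3.47 and 5.33 CPM at CT32. In Bmal1-/- it was 66.8, 78.0, 64.3 and 74.7 CPM at CT8 and 68.8, 90.3, 97.9 and 65.7 CPM at CT32. Every Bmal1-/- library was thus above every WT library, by 16.1-fold in the fit (log2 4.01, SE 0.14, adjusted p = 7e-15). These levels also exceeded the 30.3 to 41.7 CPM that WT reached at CT20/CT44, where the difference was 1.00 on the log2 scale.

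Npas2, the partner that can replace CLOCK, was at 0 to 0.623 CPM in WT and at 14.9 to 23.7 CPM in Bmal1-/- without overlap (log2 6.24, SE 0.28). At CT20/CT44 its log2 fold change was 4.16, and its interaction of 2.04 was not called (adjusted p = 0.059). Clock was below the filter with 0 to 4 molecules in a WT library and 4 to 11 in a Bmal1-/- library.

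Nfil3, the repressor that competes with DBP at D-boxes, rose from 12.7 ± 2.92 to 33.6 ± 7.54 CPM (SD, n = 8), beside 26.8 to 57.1 CPM in WT at CT20/CT44. At CT20/CT44 its difference of -0.20 on the log2 scale was not called.

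Of 12 listed genes with ROR elements, 9 were tested, of which 7 were higher and 2 lower, with a median of 1.88. Among all genes, 24.3% were higher and 25.0% lower. At CT20/CT44, 5 of the 9 were higher and 2 lower, with a median of 0.996. The interaction was higher for 3 and lower for 1, beside 3.71% and 3.46% of all genes. Cry1, Arntl, Npas2 and Nfil3 were among the higher genes, and Cry1 and Nr1d1 stand in the E-box list as well. Arntl is the targeted gene, and the median of 1.88 is its own value. It is also among the genes with a higher interaction. Insig2, which holds back sterol synthesis, rose from 76.3 to 277 CPM. Elovl3, an elongase of very long fatty acids, rose from 148 to 488 CPM in WT to 1177 to 2116 CPM in 7 Bmal1-/- libraries, while library C of Bmal1-/- at CT32 held 232 CPM. Mef2d, a transcription factor, rose by 3.37 on the log2 scale at CT8/CT32 and by 3.63 at CT20/CT44. For such a difference, alike at both phases, the genotype and its table cannot be told apart. The lower genes were Nr1d1 and E2f8, a cell cycle repressor whose log2 fold change of -0.64 was lost when any of 10 single libraries was left out.

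**Figure D3:**
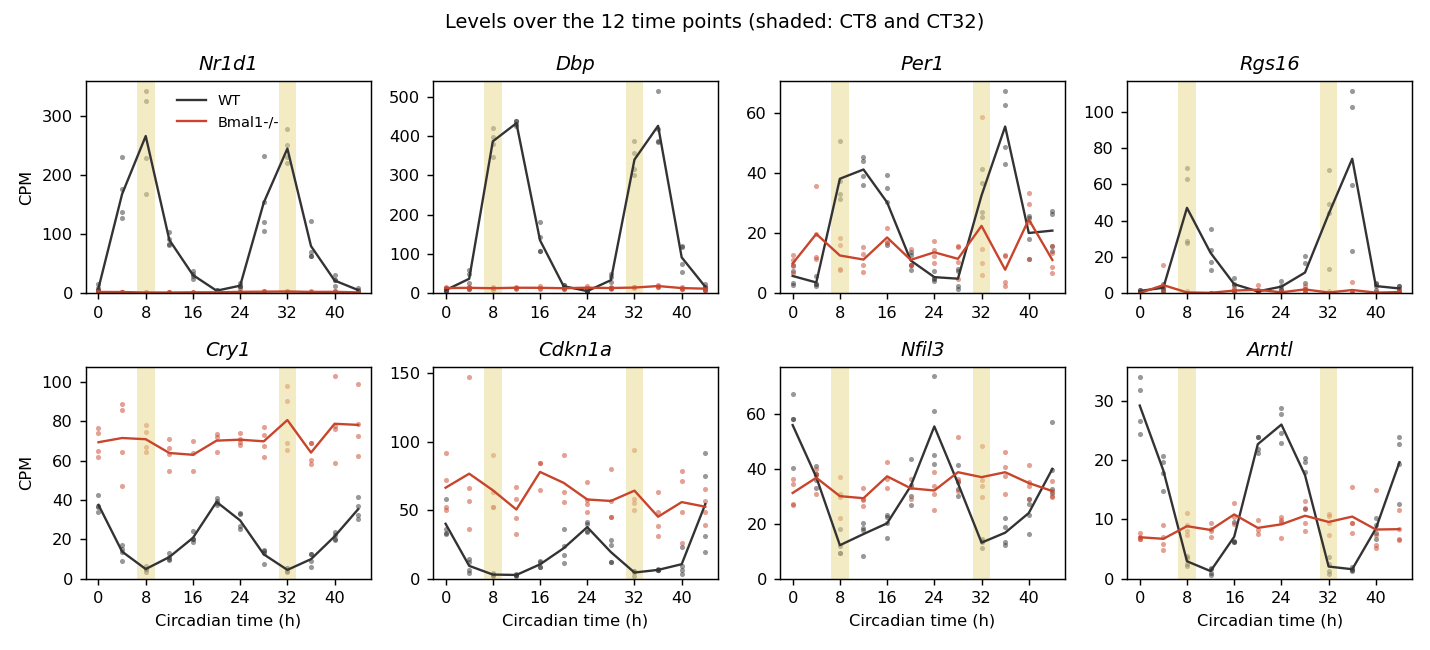
CPM (vertical axis) of 8 genes against circadian time in hours, with 1 point per library and lines through the means of WT (black) and Bmal1-/- (red); CT8 and CT32 are shaded. In Bmal1-/-, the means of Nr1d1, Dbp and Rgs16 stay far below the WT peak at all times, though library B at CT4 held 15.5 CPM of Rgs16. The means of Cry1 stay above the WT peak, and those of Nfil3 and Arntl stay between the WT low and the WT peak.

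Targets of the PAR bZIP factors were mostly lower. Of 12 listed D-box genes, 11 were tested, and 7 were lower, 2 higher and 2 not called, with a median of -1.21. Among all genes, 25.0% were lower and 24.3% higher. At CT20/CT44, 5 of the 11 were lower and 1 higher, with a median of -0.43. The interaction was lower for 1, Alas1, and higher for 0, beside 3.46% and 3.71% of all genes. The interaction of Alas1 was no longer called when any of many single libraries was left out. Ppara, the receptor that switches on fatty acid oxidation, fell to 38.5% of WT (log2 -1.38, SE 0.15). Cyp2a5, a coumarin hydroxylase, fell to 28.6%, Por, the reductase that feeds electrons to P450 enzymes, to 41.7%, and Upp2, a uridine phosphorylase, to 42.1%. Their means were lower in Bmal1-/- at CT20 and CT44 too. Mean Cyp2a5 was 819 and 1105 CPM there in WT and 106 and 167 CPM in Bmal1-/-. Mean Por was 478 and 608 against 169 and 157 CPM, and mean Upp2 96.8 and 43.1 against 54.4 and 41.2 CPM. Alas1, which makes the first committed step of heme synthesis, was called lower (log2 -1.21, adjusted p = 0.019). Its spread was wide in both genotypes, at 231 to 1302 CPM in WT and at 112 to 840 CPM in Bmal1-/-. Cyp7a1, the rate-limiting enzyme of bile acid synthesis, went the other way, from 63.0 ± 13.9 to 201 ± 71.3 CPM (SD, n = 8), and so did Cyp2b10, a drug-inducible P450, whose log2 fold change of 2.39 was 1.76 without library A of Bmal1-/- at CT32. Nr1i3, the xenobiotic receptor CAR, and the carboxylesterase Ces2a were not called, at -0.07 (SE 0.14) and 0.07 (SE 0.15).

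Genes were also chosen by their phase in WT alone. From WT libraries at CT4, CT12, CT28 and CT36 against CT0, CT16, CT24 and CT40, none of which entered the comparison, 16 genes were at least 2-fold higher in the day phase and 13 in the night phase. Of the 16, 13 were lower in Bmal1-/- at CT8/CT32 and 1 higher, with a median of -1.67. Among all genes, 25.0% were lower and 24.3% higher. Cirbp, a cold-inducible RNA-binding protein among the lower genes (log2 -0.41), was no longer called when any of several single libraries was left out. Of the 13 night-phase genes, 10 were higher and 2 lower, with a median of 1.81. At CT20/CT44 the medians of the day-phase and night-phase genes were 0.28 and 0.64.

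Among the day-phase genes, Rgs16, a regulator of G protein signaling, stood at 28.8, 27.6, 68.7 and 62.9 CPM in WT at CT8 and at 49.2, 67.5, 43.9 and 13.5 CPM at CT32. In Bmal1-/- it was at 0.293, 0.288, 1.00 and 0 CPM at CT8 and at 1.15, 0, 0.268 and 0 CPM at CT32. The loss covered all libraries (log2 -6.86, SE 0.48), whereas at CT20/CT44 the difference of -0.58 was not called. Clec2h, a C-type lectin, fell from 38.1 ± 18.9 to 2.57 ± 1.67 CPM. Slc7a2, a carrier of cationic amino acids, fell to 34.5% and Zpr1, a zinc finger protein, to 23.1% of WT. Pck1, the gluconeogenic enzyme PEPCK, fell to 25.0%, with 2288 to 6484 CPM in WT and 465 to 2445 CPM in Bmal1-/-, where the highest value was library C at CT32. The exceptions were Ly6d, which was higher (log2 0.72) but no longer called when any of 9 single libraries was left out, and Gm10804 and Chac1, which were not called.

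Among the night-phase genes, Cdkn1a, which encodes the cell cycle inhibitor p21, was at 2.15, 2.56, 4.46 and 3.13 CPM in WT at CT8 and at 4.99, 2.18, 5.46 and 5.61 CPM at CT32. It was at 63.2, 90.4, 52.3 and 52.5 CPM in Bmal1-/- at CT8 and at 57.8, 50.2, 93.9 and 55.2 CPM at CT32. The rise was 16.2-fold (log2 4.02, SE 0.20), and at CT20/CT44, where WT libraries ranged from 11.6 to 92.0 CPM, the difference of 0.71 was not called. Ppard, a nuclear receptor of fatty acids, rose from 10.9 ± 1.86 to 67.7 ± 17.7 CPM. Ppp1r3b, which ties a phosphatase to glycogen, rose from 15.7 to 53.3 CPM. The exceptions were the small chaperone Hspb1 and the acetyltransferase-like Nat8f5, both lower, and Angptl8, not called.

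Among the smallest p-values of the interaction were genes outside the clock lists. Klf10, a Krüppel-like factor, was at 19.2 to 65.5 CPM in WT and at 0.586 to 3.74 CPM in Bmal1-/-, with an interaction of -3.81 (SE 0.48). Ulk1, the kinase that starts autophagy, fell by 1.12 at CT8/CT32 and was higher in Bmal1-/- by 0.64 at CT20/CT44. Tns2, a focal adhesion protein, and Pcsk4, a proprotein convertase, fell from 148 to 43.1 CPM and from 113 to 19.2 CPM, with smaller falls of 0.60 and 1.05 on the log2 scale at CT20/CT44. The counted loci of Tns2 and Pcsk4 overlap those of Spryd3 and of Reep6. Of the tested genes with an annotated locus, 42.0% overlap another protein-coding locus on either strand. Here each locus was extended by 1000 bases at the 5′ and 100 at the 3′ end. Chka, the choline kinase of phospholipid synthesis, turned from 1.69 at CT8/CT32 to -0.80 at CT20/CT44. Lgalsl, a galectin-like protein, rose by 2.98 and 1.12 at those phases.

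Krüppel-like factors were lower for 5 of 7 tested and higher for 0, beside 25.0% lower and 24.3% higher among all genes. At CT20/CT44, 3 were lower and 0 higher. Klf9, a factor induced by glucocorticoids, fell to 25.1% of WT, with an interaction of -1.16. Of 20 tested PPARα targets and fatty acid oxidation genes, 14 were lower and 1 higher, with a median of -0.62. At CT20/CT44, 9 were lower and 0 higher, with a median of -0.32. The interaction was lower for 1 of these genes and higher for 1, beside 3.46% and 3.71% of all genes. Cpt1a, which admits fatty acids to mitochondria, fell from 259 ± 29.9 to 109 ± 21.8 CPM (SD, n = 8). The higher gene at CT8/CT32 was Pdk4, an inhibitor of glucose oxidation, at 1.81 CPM in WT and 20.3 CPM in Bmal1-/-, without overlap.

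Heat shock genes, a list of cytosolic and mitochondrial chaperones with the regulator Hsf1, were higher for 9 of 12 tested and lower for 2 at CT8/CT32. Among all genes, 24.3% were higher and 25.0% lower. The median of the list was 0.66 at CT8/CT32 and -0.12 at CT20/CT44. Hsph1, a partner of HSP70, was at 15.4 to 25.9 CPM in WT and at 44.8 to 84.0 CPM in Bmal1-/-. At CT20/CT44 its log2 fold change was -0.81, and 7 of the listed genes had a higher interaction, beside 3.71% of all genes. Hspa8, the constitutive HSP70, rose from 447 ± 44.4 to 1043 ± 97.4 CPM (SD, n = 8). Of 19 genes of ER chaperones and the unfolded protein response, 8 were higher, 2 lower and 9 not called, with a median of 0.13. At CT20/CT44, 0 were higher and 7 lower, beside 20.4% and 21.5% of all genes. Hspa5, the ER chaperone BiP, rose by 0.59 on the log2 scale, against -0.48, not called, at CT20/CT44.

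Cholesterol synthesis genes differed at both phases. All 18 tested were higher at CT8/CT32, with a median of 1.66, and 15 of them at CT20/CT44, with a median of 1.10, and 0 had a called interaction. The genotype and its table cannot be told apart for differences shared by both phases. Msmo1 and Cyp51, enzymes that remove methyl groups from sterols, rose from 23.6 to 156 CPM and from 7.77 to 43.7 CPM. Mvk, mevalonate kinase, rose from 36.7 to 144 CPM. Of 21 urea cycle and amino acid genes, 13 were higher and 1, glutamine synthetase Glul, was lower (log2 -1.83), beside 24.3% higher and 25.0% lower among all genes. Their median was 0.55, and at CT20/CT44, where 7 were higher and 5 lower, it was 0.14. Of 24 respiratory chain genes, 13 were higher and 0 lower, with a median of 0.27. At CT20/CT44, 8 were higher and 1 lower, with a median of 0.08, beside 20.4% higher and 21.5% lower among all genes.

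**Figure D4:**
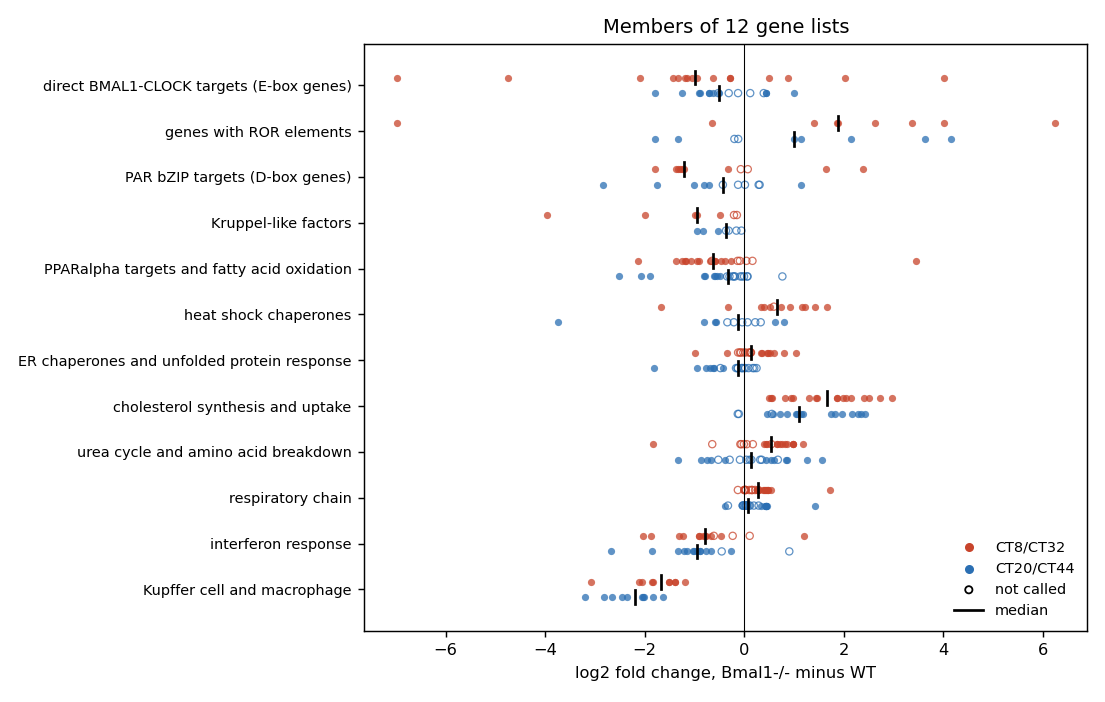
Log2 fold changes of Bmal1-/- over WT (horizontal axis) for the tested members of 12 gene lists (rows), at CT8/CT32 in red and CT20/CT44 in blue, filled where called and open where not, with black bars at the medians. Heat shock genes have medians of 0.66 and -0.12 at these phases, while cholesterol synthesis (1.66 and 1.10) and Kupffer cell markers (-1.67 and -2.20) have the same direction at both.

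Interferon response genes were lower for 11 of 15 and higher for 1 at CT8/CT32, beside 25.0% lower and 24.3% higher among all genes. Their median was -0.79 at CT8/CT32 and -0.94 at CT20/CT44. Igtp, an immunity GTPase, fell from 141 to 38.3 CPM, and B2m, a subunit of MHC class I, was the higher gene. Markers of Kupffer cells moved with them, as all 10 tested were lower with a median of -1.67, among them C1qa, a complement subunit, at 172 against 60.7 CPM, and none of the 12 joined markers was at 0 in all libraries. Fewer cells of a type and less RNA per cell cannot be told apart in bulk tissue, and the part of these cells in the interferon result was not tested. The markers of sinusoidal endothelium were lower for 5 of 10, and their summed levels of 151 to 285 CPM in WT and 125 to 197 CPM in Bmal1-/- overlapped. Among growth hormone genes, Igf1, the circulating growth factor of liver, fell to 14.7% of WT at CT8/CT32 (log2 -2.77, SE 0.20) and by 2.33 on the log2 scale at CT20/CT44. Here too the genotype and its table cannot be told apart. In the 10 Mb on either side of Arntl on chromosome 7, 53.1% of 64 genes were called, beside 49.3% of all genes.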

How the data were processed

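Per the labels and the study's methods, alignment to mm10 by the authors used STAR after adapter removal with cutadapt, and unique molecules were counted by HTSeq-count on RefSeq genes extended by 1000 bases at the 5′ and 100 at the 3′ end; versions are not given in the sources used here. The deposited counts are whole numbers; the deposited normalized signal of WT (counts scaled by the authors with DESeq2) was not used, nor was the table of Per1/2-/-. Genes were joined by symbol (10559) or by an older symbol (411), and joined genes held 99.4 to 99.6% of the molecules of a library. Genes found in only 1 of the tables were left out.

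Counts were filtered (filterByExpr, minimum count 10), scaled by TMM and fitted with edgeR 4.0.16 in R 4.3.3 as day plus genotype; the phase interaction used 31 libraries with day within genotype. DESeq2 1.42.0 served as an alternative. CPM were scaled by TMM over the 94 WT and Bmal1-/- libraries, and tables and plots were made with Python 3.11.15, pandas 2.3.3, NumPy 2.4.6 and Matplotlib 3.10.9. The labels do not say whether libraries are separate animals, and p-values measure the spread between libraries. Counts of any pair of libraries within a group differed by more than sampling noise (chi-square over its degrees of freedom of at least 5.65).

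Members and lists were chosen with earlier results of these data known. Named were every tested gene of the clock lists, the 12 largest called changes each way (mean log2 CPM of at least 4, no overlap, called with each library left out), up to 4 called members with the smallest p per other list, 6 genes per interaction and direction, and the WT phase genes. Not every gene so named is printed, and some results are not reported here. The tests were checked on simulated data. Alternatives were RLE scaling, library totals, other filters, DESeq2, all 94 libraries, each day alone, a replicate block, each library left out and, chosen after seeing the data, genes with the same symbol in both tables.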

Additional observations from a re-analysis of the deposited data

Results flagged for a closer look

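In a group of 4, a single library lay far from the others by Dixon's ratio in 7 of 144 groups tested, and chance gives about 1 in 20. In Bmal1-/- at CT32, library C was high for Per1 (58.5 CPM, the others 6.14 to 14.7) and low for Dbp (12.3 CPM, the others 14.7 to 15.0) and Insig2 (197 CPM, the others 321 to 325), and library B was high for Ppara (98.8 CPM, the others 49.6 to 52.7). In Bmal1-/- at CT8, library C was low for Per3 (1.67 CPM, the others 3.51 to 3.74) and library D for Upp2 (30.6 CPM, the others 45.1 to 47.98). In WT at CT32, library B was low for Alas1 (231 CPM, the others 776 to 878). Without library C of Bmal1-/- at CT32 the log2 fold change of Per1 was -1.63, of Dbp -4.74 and of Insig2 1.94.

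The difference between genotypes itself differed between CT8/CT32 and CT20/CT44, by edgeR's interaction test, for 296 genes in the lower direction and 317 in the higher. The interaction of genes among those with the smallest p-values was -5.20 for Nr1d1, -4.24 for Dbp, -3.81 for Klf10, -1.77 for Ulk1, -1.51 for Pcsk4 and -1.17 for Tns2 on the log2 scale. In the other direction it was 3.22 for Arntl, 3.02 for Cry1, 2.47 for Chka, 2.45 for Hsph1 and 1.84 for Lgalsl.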

How the results depend on the processing

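Leaving out single libraries gave 2033 to 2214 lower and 1954 to 2100 higher genes, 553 to 613 and 452 to 475 at least 2-fold, 248 to 346 and 263 to 356 by the interaction, 0 to 1 between the days (1 without WT CT32 D), and 12 to 13 and 10 of the WT phase genes. CT32 alone called 1249 lower and 1243 higher genes with fewer libraries, and no filter called 921 at least 2-fold lower genes among more genes tested. With library totals the interaction called 534 lower and 197 higher genes. The replicate block, for letters that did not pair libraries (correlations -0.08 to 0.11), gave 2145 lower and 2038 higher genes at CT8/CT32, and 333 and 325 by the interaction. The other counts stayed within 1.5 times. Of 11872 values of the 192 named genes under the alternatives, 11628 kept direction and side of the threshold, 170 lost and 72 gained the call. Fabp5 and Sp1, named only for the interaction with day, reversed at CT8 alone, with log2 fold changes of 0.58 and -0.10. Depth limits genes such as Clock and Nr1d2 to a few molecules.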

Other observations

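Single genes of further lists differed at CT8/CT32, where 25.0% of all genes were lower and 24.3% higher. Of 12 growth hormone signalling genes, 4 were lower and 5 higher, with a median of -0.18 on the log2 scale, so the list had no common direction. Stat5b, the transcription factor that carries the growth hormone signal, rose from 54.5 ± 5.32 to 109 ± 11.8 CPM (SD, n = 8) without overlap. Its log2 fold change was 1.01 here and 1.07 at CT20/CT44, so the genotype and its table cannot be told apart. Of 9 iron genes, 2 were lower and 3 higher, which is near the share of all genes, with a median of 0.08. Slc40a1, the iron exporter ferroportin, fell from 43.6 ± 5.02 to 11.1 ± 3.04 CPM, and Hjv, the hemojuvelin coreceptor that raises hepcidin, rose from 41.3 ± 6.74 to 93.9 ± 10.5 CPM. The interaction with phase was called for both, at -1.08 and 0.63 on the log2 scale.

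Of 10 immediate early genes, 4 were lower and 1 higher at CT8/CT32 (median -0.55), and 8 were lower and 0 higher at CT20/CT44 (median -1.49), where 21.5% of all genes were lower. Junb, an AP-1 subunit, fell from 56.4 ± 16.3 to 15.5 ± 6.09 CPM. Of 15 xenobiotic P450 genes and regulators, 2 were lower, 6 higher and 7 not called, beside 25.0% and 24.3% of all genes. Among the higher was Cyp2c29, which rose from 1713 ± 216 to 3742 ± 1037 CPM; members of the Cyp2c family are similar in sequence and their 3′ tags may be shared. Gpam, which starts triglyceride synthesis, rose from 6.84 ± 2.06 to 153 ± 28.7 CPM, by 4.48 on the log2 scale at CT8/CT32 and 4.14 at CT20/CT44. For this difference at both phases, the genotype and its table cannot be told apart. Gsta4, a glutathione transferase, fell from 164 ± 24.2 to 33.9 ± 10.9 CPM, and Gstm3, a transferase of another class, rose from 92.1 ± 37.8 to 444 ± 139 CPM.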
